A study of Mus musculus with 9 samples.

Results

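The 10 genes described here are listed as targets of serum response factor (SRF). Apart from Srf itself, they belong to the contractile and actin-linked cytoskeleton. All 10 were followed across 9 libraries from the mouse preadipocyte line 3T3-L1. They were chosen by name from the 28965 gene symbols of the table, and all 10 members were found: the smooth muscle actins Acta2 and Actg2, the calponin family genes Tagln, Cnn1 and Cnn2, the myosin light chain Myl9, the tropomyosins Tpm1 and Tpm2, the adhesion protein vinculin (Vcl) and Srf itself. All cells were wild type, were held at confluence for 2 days without new medium and then received the same adipogenic cocktail for 24 h, with insulin at 0.1 µg/mL, isobutylmethylxanthine at 30 µg/mL and dexamethasone at 0.1 µg/mL. Cells labelled MDI got only albumin as the vehicle; those labelled OA got oleic acid at 100 µM, carried on albumin; and those labelled OA_T0 got this plus T0901317 at 5 µM, which activates liver X receptors (LXR). Each group had 3 libraries of poly(A) RNA; no group had T0901317 without oleic acid, and a single clonal line limits how far the values speak for primary precursors. Nothing states that the replicates were separate cultures, so p-values measure the spread between these libraries, which may be technical.

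As background, SRF is a transcription factor that binds the CArG box in the promoters of muscle and cytoskeletal genes. Its partners of the myocardin family are held in the cytoplasm by free actin monomers and enter the nucleus when actin polymerises, while its ternary complex partners of the ELK family answer to growth factor signalling. Preadipocytes carry stress fibres and adhesions that are taken down as they round up into adipocytes, and low SRF activity is known to favour adipogenesis.

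Values are the authors' normalised counts per gene. The estimated depth was 59.9 M fragments in MDI replicate 1 and 18.0 to 29.3 M in the other libraries, and 3 fragments, taken as the floor of detection, were worth 1.35 to 4.62 units; such floors cover counting error only. The transcript CT010467.1, which carries ribosomal RNA sequence, took 0.649% of the total in OA replicate 1 and 3.06% in OA_T0 replicate 3, against 4.40% to 5.96% in the other libraries. MDI replicate 1 also stood apart in the members themselves: it was the lowest MDI library for all 9 members that entered the test, by a median of -0.22 on the log2 scale from the group mean, where the median over all tested genes was -0.042. Results are therefore given with and without these libraries where they differ.

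The smooth muscle actins, Myl9, Tagln, Cnn2 and Srf had their lowest means with oleic acid and their highest with T0901317 added, and neither tropomyosin passed in any comparison. Of the 10 members, 9 passed the filter of a mean value of at least 10 and were tested with limma, on the log2(value + 1) scale, with p-values adjusted over 15002 genes. In OA vs MDI, 0 were higher, 3 were lower (Acta2, Myl9 and Vcl) and 6 did not pass; at an unadjusted p under 0.05 the counts were 0 higher and 6 lower. Over all tested genes 3.43% were called higher and 3.36% lower. In OA_T0 vs OA, 6 were higher (Acta2, Actg2, Tagln, Cnn2, Myl9 and Srf), 0 were lower and 3 did not pass, against a background of 8.27% higher and 6.84% lower; at an unadjusted p under 0.05 there were 7 higher and 0 lower. In OA_T0 vs MDI 0 of 9 passed in limma, with 3 higher and 0 lower at an unadjusted p under 0.05, against 1.25% of all genes called higher and 1.36% lower.

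The median log2 fold change of the 9 tested members was -0.29 in OA vs MDI, 0.50 in OA_T0 vs OA and 0.21 in OA_T0 vs MDI, beside medians of 0.014, -0.0023 and 0.019 over all tested genes. The OA libraries enter the first comparison and the second with opposite signs, so the fall and the rise are not independent of each other. Groups did not overlap for 0 higher and 4 lower members in OA vs MDI, where 13.4% of all genes were higher and 12.6% lower without overlap. For OA_T0 vs OA the members were 7 higher and 1 lower, beside 17.1% and 15.0% of all genes. For OA_T0 vs MDI they were 4 higher and 0 lower, beside 13.3% and 10.2%. Without MDI replicate 1 the members called were 4 lower in OA vs MDI and 7 higher in OA_T0 vs OA. Without OA_T0 replicate 3 there were 5 lower, and without both libraries low in CT010467.1 there were 3 lower and 6 higher. The 3 lower became 2 without MDI replicate 2 or 3 or OA replicate 1 or 2, in each case by the loss of Vcl.

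**Figure D1:**
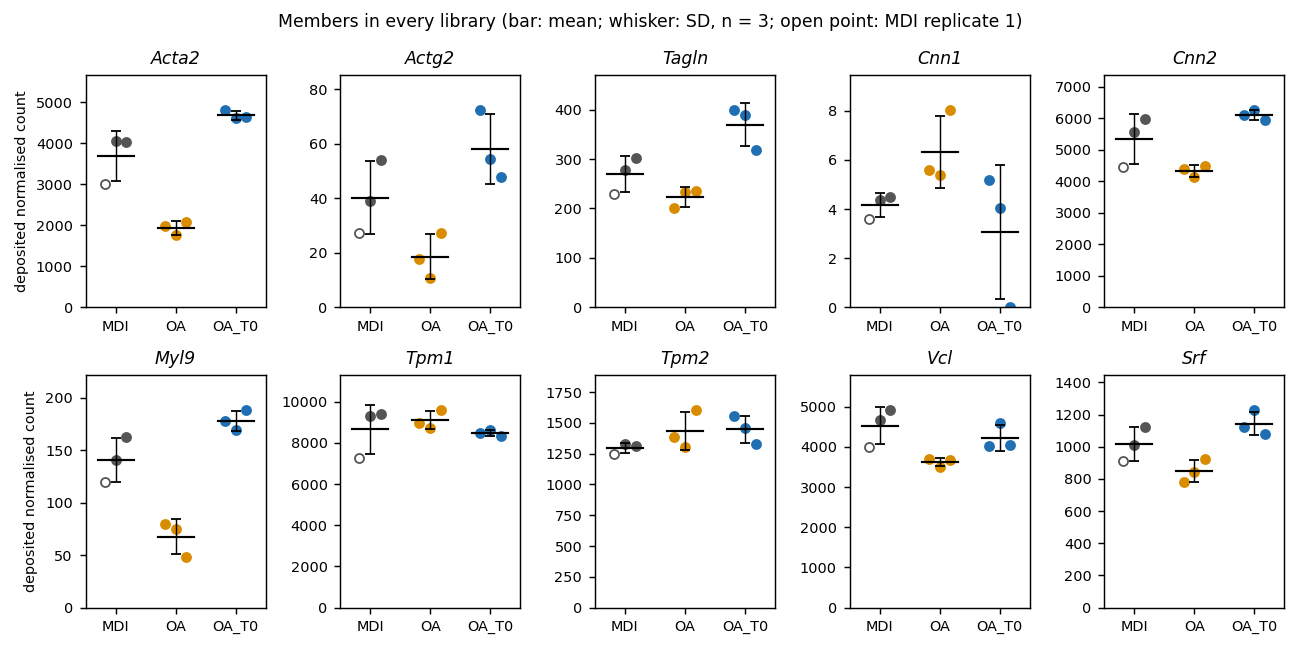
Deposited normalised counts of the 10 members in each library (y axis, linear from 0) by group (x axis), with the mean as a bar, the SD as a whisker (n = 3) and MDI replicate 1 as an open point. For Acta2, the OA libraries (1754 to 2076) lie below all MDI libraries and the OA_T0 libraries (4611 to 4811) above all of them, while Tpm1 has no such order.

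Acta2, the actin of smooth muscle and of myofibroblast stress fibres, measured 2995, 4056 and 4029 in MDI, 1988, 1754 and 2076 in OA, and 4811, 4611 and 4636 in OA_T0. The 3 groups did not overlap, with OA lowest and OA_T0 highest. The group means were 3693 ± 605, 1939 ± 167 and 4686 ± 109 (SD, n = 3). Acta2 fell by 0.92 on the log2 scale in OA vs MDI (SE 0.097, limma adjusted p = 3.26e-05), which placed it 123rd from the lowest fold change of 15002 genes. It rose by 1.28 in OA_T0 vs OA (SE 0.097, limma adjusted p = 5.55e-07), the 47th highest. Against MDI the OA_T0 libraries were 1.27-fold higher on the means (log2 fold change 0.36, limma adjusted p = 0.0688), which passed without MDI replicate 3 (limma adjusted p = 0.0350); without MDI replicate 1 the log2 fold change was 0.21.

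Actg2, the enteric smooth muscle actin, stood far lower, at 27.5, 39.2 and 54.1 in MDI, 17.9, 10.7 and 27.1 in OA, and 72.4, 54.3 and 47.8 in OA_T0. All values lay above the floor of 3 fragments, but the spread was wide, with an SD of 44.2% of the mean in OA. The highest OA library lay just below the lowest MDI library, and OA_T0 overlapped with MDI. Actg2 had the largest log2 fold change of the tested members in OA_T0 vs OA, at 1.66 (SE 0.34, limma adjusted p = 0.00388), the 12th highest of all tested genes. In OA vs MDI the log2 fold change was -1.11 with a 95% confidence interval from -1.83 to -0.40, and it did not pass (limma adjusted p = 0.0607). It passed without OA replicate 3 (limma adjusted p = 0.0311) or without OA_T0 replicate 3 (0.0478).

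The actins are near-identical proteins, so shared reads were checked on the GENCODE M21 transcripts. Of the 50-base stretches of the longest Acta2 transcript, 0.352% also occurred in another gene, the pseudogene Actg-ps1, and 0% of those of Actg2 or of any other member did. Only exact matches between annotated transcripts were counted, so reads placed with mismatches are not covered by this check. The length of the reads is not given in the sources used here.

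The promoters were searched for the CArG box, which is CC, then 6 letters that are A or T, then GG. The RefSeq table (build GRCm38.p6) held 8 of the 10 members, without Actg2 and Tagln. The 250 bases before the annotated start are shown for Acta2, because it had the lowest p-value of the members in both comparisons with OA, with its 2 near matches to the CArG box in capitals; each differs from the motif by 1 letter. The MCAT element CATTCC, bound by TEAD factors, was also searched on both strands, and one lies upstream of them, in lower case.
Acta2, chr19:34255374-34255623, minus strand: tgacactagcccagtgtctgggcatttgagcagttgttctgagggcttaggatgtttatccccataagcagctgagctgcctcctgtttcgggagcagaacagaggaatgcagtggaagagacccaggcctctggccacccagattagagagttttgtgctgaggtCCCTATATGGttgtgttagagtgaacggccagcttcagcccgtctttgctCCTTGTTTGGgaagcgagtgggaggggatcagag

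Tagln, or transgelin (SM22), is a calponin-like protein that binds actin filaments and a classic marker of SRF activity. Its values were 229, 278 and 301 in MDI, 200.2, 234 and 235 in OA, and 399, 389 and 319 in OA_T0. The OA_T0 libraries were the highest 3, and MDI and OA overlapped. Tagln rose from 223 ± 19.9 in OA to 369 ± 43.6 in OA_T0 (SD, n = 3), a log2 fold change of 0.72 (SE 0.13, limma adjusted p = 0.00145). Its log2 fold change in OA vs MDI was -0.27 (95% confidence interval -0.54 to 0.0035, limma adjusted p = 0.242). Against MDI the OA_T0 value was 0.45 (limma adjusted p = 0.0740), which passed without MDI replicate 3 (0.0441), without OA_T0 replicate 3 (0.0289) and without both libraries low in CT010467.1 (0.0261). Pcsk7 lies over Tagln on the opposite strand, and whether the counting used strand is not given in the sources used here, so reads of overlapping genes on opposite strands may be mixed.

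Cnn1 and Cnn2 are calponins, which bind actin and restrain myosin. Cnn1, the form of differentiated smooth muscle, was all but absent: 3.60, 4.35 and 4.51 in MDI, 5.59, 5.37 and 8.03 in OA, and 5.17, 4.02 and 0 in OA_T0. These were 4 to 8 fragments a library, apart from the library at 0, whose floor of 3 fragments was 4.62, so Cnn1 was below the filter. With no filter its limma adjusted p was 0.798 for OA against MDI and 0.364 for OA_T0 against OA, and no difference was detectable at this depth. Cnn2, the form found in many non-muscle cells, measured 4442, 5575 and 5987 in MDI, 4393, 4124 and 4482 in OA, and 6101, 6262 and 5955 in OA_T0. Its lowest MDI value, that of replicate 1, lay within the OA range, and OA_T0 lay above every OA library. Cnn2 rose by a log2 fold change of 0.50 in OA_T0 vs OA (SE 0.085, limma adjusted p = 0.00126). In OA vs MDI the log2 fold change was -0.29 (SE 0.085, limma adjusted p = 0.0551), and it passed without MDI replicate 1 (log2 fold change -0.42, limma adjusted p = 0.00161) or without OA_T0 replicate 3 (0.0440). The upstream sequence of Cnn2 is shown because it holds an exact CArG box, in capitals, close to the start.
Cnn2, chr10:79988350-79988599, plus strand: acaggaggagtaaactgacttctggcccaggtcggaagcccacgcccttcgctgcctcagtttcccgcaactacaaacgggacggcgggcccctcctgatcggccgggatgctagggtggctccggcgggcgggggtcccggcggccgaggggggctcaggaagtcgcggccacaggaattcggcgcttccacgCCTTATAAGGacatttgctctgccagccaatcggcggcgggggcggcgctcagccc

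Myl9, the regulatory light chain whose phosphorylation drives contraction of smooth muscle and stress fibres, measured 119.7, 140.3 and 162 in MDI, 79.4, 75.1 and 48.2 in OA, and 178, 169 and 188 in OA_T0. No group overlapped with another. The means were 141 ± 21.3, 67.6 ± 16.9 and 178 ± 9.54 (SD, n = 3). Myl9 fell by 1.07 on the log2 scale in OA vs MDI (SE 0.19, limma adjusted p = 0.00267), the 82nd lowest of all tested genes, and rose by 1.42 in OA_T0 vs OA (SE 0.19, limma adjusted p = 1.23e-04), the 25th highest. Both calls held under all 19 alternatives run for each comparison. The OA_T0 vs MDI log2 fold change was 0.35 (limma adjusted p = 0.330). Its upstream sequence, shown as that of the member outside the actins with the largest changes, holds 1 exact CArG box in capitals, and a near match nearer the start is left in lower case.
Myl9, chr2:156775214-156775463, plus strand: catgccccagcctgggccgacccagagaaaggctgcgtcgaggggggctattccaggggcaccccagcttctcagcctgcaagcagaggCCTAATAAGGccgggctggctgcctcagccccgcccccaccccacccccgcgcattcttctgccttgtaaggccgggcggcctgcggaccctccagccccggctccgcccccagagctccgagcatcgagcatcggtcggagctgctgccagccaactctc

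**Figure D2:**
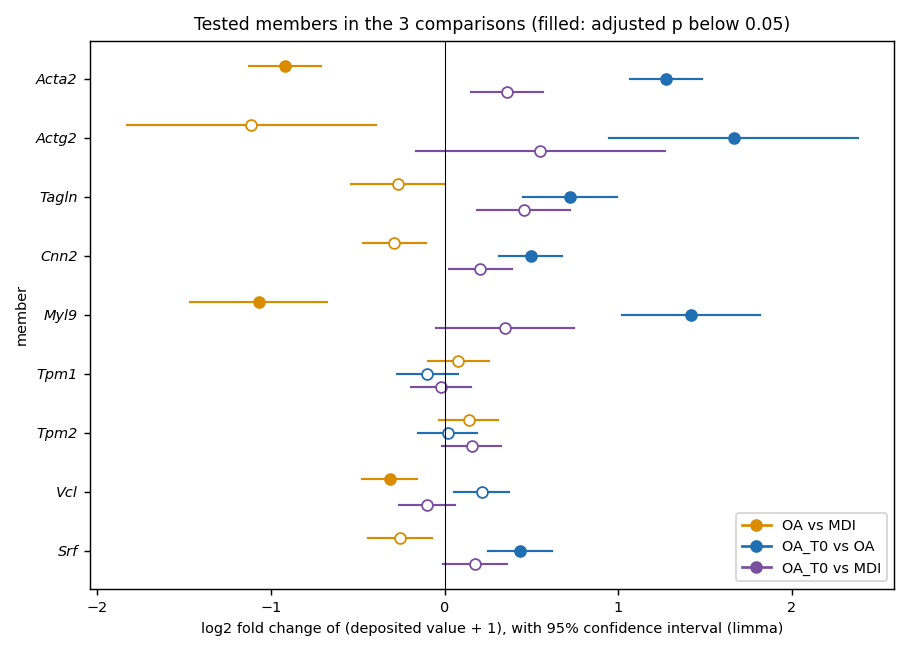
Log2 fold change on the log2(value + 1) scale (x axis) of the 9 tested members (y axis) in the 3 comparisons, as points with 95% confidence intervals from limma; filled points passed at an adjusted p below 0.05. The OA vs MDI points of Acta2, Actg2 and Myl9 lie near -1, their OA_T0 vs OA points above 1.2, and the points of Tpm1 and Tpm2 lie near 0 in every comparison.

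The tropomyosins, which lie along the actin filament and control the access of myosin, did not follow the actins. Tpm1 measured 7278, 9318 and 9395 in MDI, 8982, 8731 and 9586 in OA, and 8467, 8651 and 8339 in OA_T0. The one value that stood out was the low one of MDI replicate 1. Tpm1 had log2 fold changes of 0.079 in OA vs MDI (95% confidence interval -0.096 to 0.25, limma adjusted p = 0.645) and -0.10 in OA_T0 vs OA (-0.28 to 0.076, limma adjusted p = 0.449), although every OA_T0 library lay below every OA library. Tpm2 measured 1249, 1326 and 1309 in MDI, 1386, 1304 and 1602 in OA, and 1553, 1455 and 1331 in OA_T0. OA overlapped with both other groups, and OA_T0 lay above MDI by a small margin. Its log2 fold changes were 0.14 in OA vs MDI (-0.031 to 0.31, limma adjusted p = 0.349) and 0.018 in OA_T0 vs OA (-0.15 to 0.19, limma adjusted p = 0.903). For both genes these intervals leave out a change the size of that of Acta2. The table gives 1 value per gene, so a switch between muscle and non-muscle tropomyosin isoforms would not be seen.

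Vcl, vinculin, links integrin adhesions to actin filaments. It measured 4008, 4656 and 4908 in MDI, 3692, 3496 and 3683 in OA, and 4016, 4581 and 4039 in OA_T0. OA lay below both other groups, and MDI and OA_T0 overlapped. Vcl fell from 4524 ± 464 to 3624 ± 110.5 in OA vs MDI (SD, n = 3; log2 fold change -0.32, SE 0.075, limma adjusted p = 0.0197). That call was lost without replicate 2 or 3 of MDI (limma adjusted p = 0.105 and 0.0609) or without replicate 1 or 2 of OA (0.0525 and 0.0677). For OA_T0 vs OA its log2 fold change was 0.21 (limma adjusted p = 0.0656), which passed without MDI replicate 1 (0.0309) or MDI replicate 3 (0.0495), since the MDI libraries enter the shared spread. For OA_T0 vs MDI it was -0.10 (95% confidence interval -0.26 to 0.059, limma adjusted p = 0.494). Ap3m1 overlaps Vcl on the opposite strand. The upstream sequence of Vcl is shown for its exact CArG box, which lies far from the start.
Vcl, chr14:20929148-20929397, plus strand: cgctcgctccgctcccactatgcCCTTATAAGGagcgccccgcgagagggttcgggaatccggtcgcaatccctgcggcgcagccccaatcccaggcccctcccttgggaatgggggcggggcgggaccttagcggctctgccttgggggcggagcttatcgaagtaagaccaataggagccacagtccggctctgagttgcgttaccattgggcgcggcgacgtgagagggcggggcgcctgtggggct

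Srf itself measured 912, 1011 and 1123 in MDI, 783, 843 and 921 in OA, and 1126, 1227 and 1082 in OA_T0. The lowest MDI library lay within the OA range, and OA_T0 lay above OA. Srf rose from 849 ± 69.4 to 1145 ± 74.3 in OA_T0 vs OA (SD, n = 3; log2 fold change 0.43, SE 0.086, limma adjusted p = 0.00364). In OA vs MDI the log2 fold change was -0.26 (limma adjusted p = 0.0938), and in OA_T0 vs MDI 0.18 (limma adjusted p = 0.289). Gm26904 overlaps Srf on the opposite strand and Mir6976 on the same strand. SRF is known to act on its own gene, and the sequence before the annotated start is shown because it holds 2 exact CArG boxes, in capitals, where 0.0183% of 32851 promoters held 2 or more; a near match follows in lower case.
Srf, chr17:46556163-46556412, minus strand: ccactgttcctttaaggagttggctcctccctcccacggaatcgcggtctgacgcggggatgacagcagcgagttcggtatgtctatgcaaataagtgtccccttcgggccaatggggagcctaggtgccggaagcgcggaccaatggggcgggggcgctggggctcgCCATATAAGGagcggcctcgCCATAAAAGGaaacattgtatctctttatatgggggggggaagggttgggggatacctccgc

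Over the 8 members with a promoter, 4 had an exact CArG box (Cnn2, Myl9, Vcl and Srf) and 2 more (Acta2 and Tpm1) only matches with 1 letter changed, while Cnn1 and Tpm2 had neither. Of all 32851 promoters in the table, some genes having several, 1.47% held an exact CArG box in the same 250 bases and 18.6% held one with at most 1 letter changed. The members are listed as SRF targets, so a high share is part of how they were chosen. MCAT elements were found in 3 members (Acta2, Tpm1 and Vcl) and in 12.6% of all promoters.

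**Figure D3:**
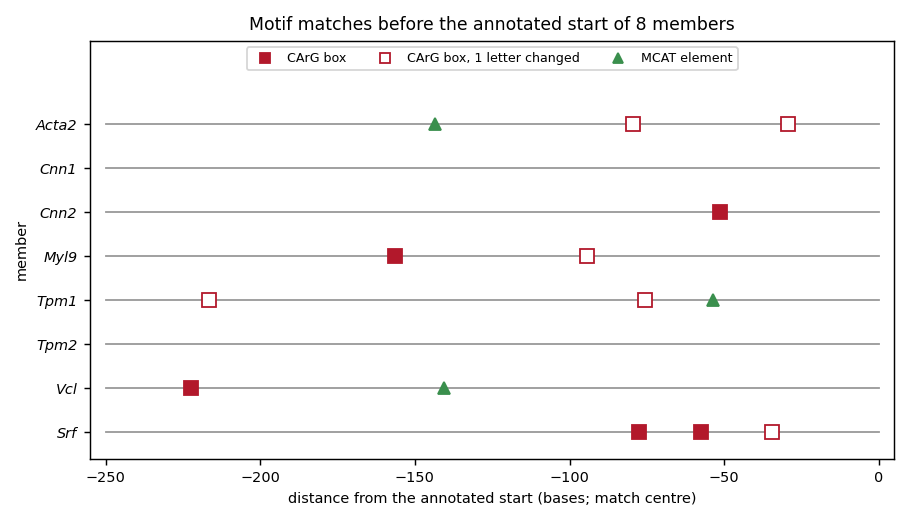
Motif matches before the annotated start of the 8 members with a promoter in the RefSeq table (x axis, distance from the start in bases; one line per member), with exact CArG boxes as filled squares, those with 1 letter changed as open squares and MCAT elements as triangles. Exact boxes lie between 227 bases (Vcl) and 56 bases (Cnn2) before the start, counted at their first base, and Cnn1 and Tpm2 have no match.

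**Figure D4:**
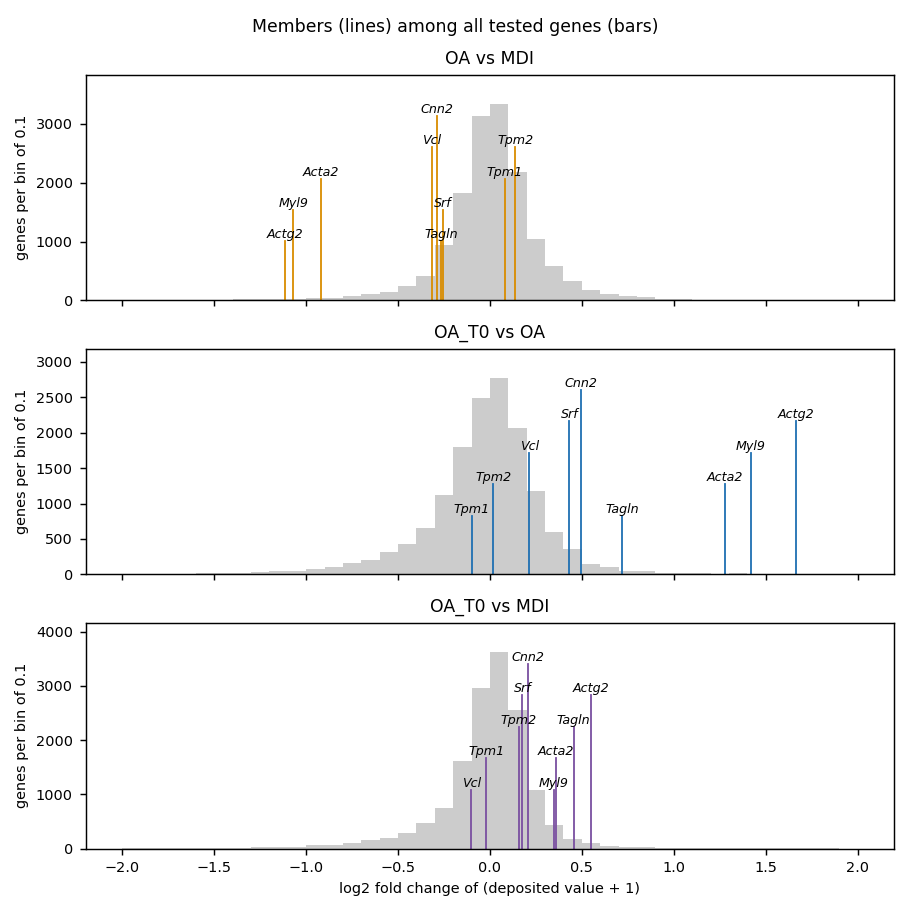
Log2 fold changes of the 9 tested members (lines) among all 15002 tested genes (bars, genes per bin of 0.1; genes beyond 2 in size are not drawn) in the 3 comparisons. Acta2, Actg2 and Myl9 lie in the left tail in OA vs MDI and in the right tail in OA_T0 vs OA, and Tpm1 and Tpm2 lie near the centre in all 3.

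Per kilobase of merged exon length in GENCODE M21, an annotation of a newer build than the one the notes name, the members spanned a wide range of levels. In MDI, Cnn2 stood at 2169 ± 325 units per kilobase, Acta2 at 1815 ± 297 and Tpm1 at 1813 ± 251 (SD, n = 3), and these ranges overlapped. Vcl (859), Tpm2 (544), Srf (388), Tagln (169), Myl9 (125), Actg2 (29.5) and Cnn1 (1.65) followed, with no overlap of mean ± SD between neighbours in this order. In OA, Acta2 dropped to 953 ± 81.9 units per kilobase, below Tpm1 (1904 ± 91.9) and Cnn2 (1761 ± 75.7). In OA_T0, Cnn2 (2482 ± 62.3) and Acta2 (2303 ± 53.6) both stood above Tpm1 (1775 ± 32.9). The cytoplasmic actin Actb was far above all of these, at 35442 ± 2052 units per kilobase in MDI.

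Libraries differed within groups as well as between them. Across the 9 libraries the 36 pairs of tested members had Pearson correlations from -0.32 (Myl9 with Tpm1) to 0.95 (Acta2 with Cnn2), with a median of 0.73; the points share groups and scaling factors. After each group's mean was taken away the median was 0.60, and Acta2 with Tpm1 went from -0.16 to 0.95. MDI replicate 1, low for every tested member, takes part in all of these values.

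**Figure D5:**
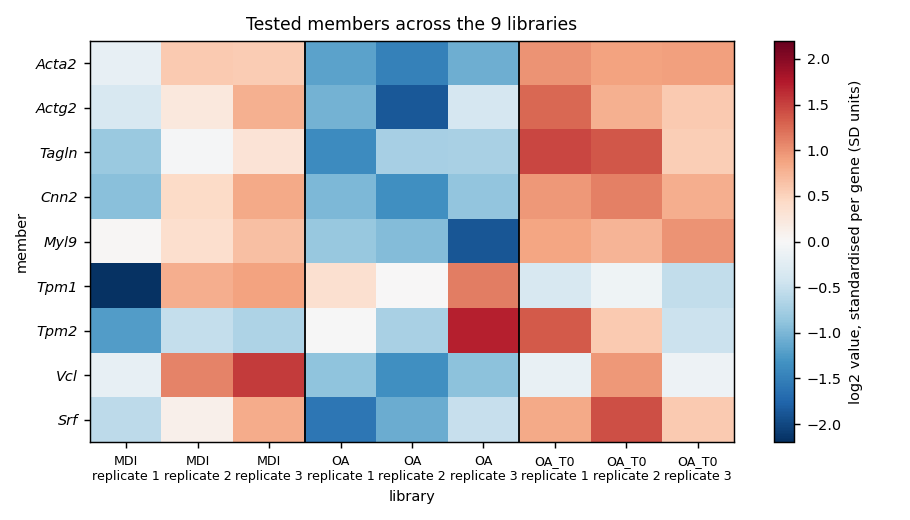
Log2 values of the 9 tested members (rows) in the 9 libraries (columns), standardised per gene over all libraries (colour, in SD units). The OA columns are on average the lowest for Acta2, Actg2, Tagln, Cnn2, Myl9, Vcl and Srf, MDI replicate 1 is the lowest MDI column in every row, and Tpm1 and Tpm2 do not follow the other rows.

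Of 6 listed cofactors of SRF 5 were tested. In OA vs MDI 0 passed in limma (1 higher and 1 lower at an unadjusted p under 0.05). In OA_T0 vs OA 1 was lower, where 6.84% of all tested genes were called lower, and 0 passed in OA_T0 vs MDI (1 and 1). Mrtfa, the myocardin-related factor that senses free actin, averaged 1089 in MDI, 1075 in OA and 1111 in OA_T0, with limma adjusted p of 0.686 or more. Mrtfb, its paralogue, fell by 0.24 on the log2 scale in OA_T0 vs OA (limma adjusted p = 0.0187), opposite in sign to the 6 members called there. That call of Mrtfb was lost without OA replicate 2 (limma adjusted p = 0.0856) or OA_T0 replicate 1 (0.0976), and without both libraries low in CT010467.1 (0.0543). The ternary complex factors Elk1, Elk3 and Elk4 had log2 fold changes of 0.087, 0.19 and -0.21 in OA vs MDI and 0.096, -0.22 and 0.13 in OA_T0 vs OA. None passed in limma, and Elk3 came closest, in OA_T0 vs OA (limma adjusted p = 0.0509). Myocd, myocardin, was at or below the floor in all MDI and OA libraries and measured 5.17, 4.02 and 0 in OA_T0. The floors of these OA_T0 libraries were 3.10, 3.02 and 4.62. Myocd was thus near the floor throughout, was below the filter and was not tested. The 1 lower became 2 without MDI replicate 1 or OA_T0 replicate 2. The count was also 2 with a pseudocount of 5, a filter at a mean of 50, quantile normalisation, equal totals or robust variance.

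Paralogues of the members were taken from a list of 12, of which 11 were found and 9 tested. In OA vs MDI 0 were higher and 1, Actg1, was lower, beside 3.36% of all tested genes called lower. In OA_T0 vs OA 6 were higher and 0 lower, beside 8.27% of all tested genes called higher. In OA_T0 vs MDI 0 passed in limma, with 3 higher and 0 lower at an unadjusted p under 0.05. Actg1, a cytoplasmic actin, averaged 33781 in MDI, 27929 in OA and 39340.0 in OA_T0, with log2 fold changes of -0.27 in OA vs MDI (limma adjusted p = 0.0393) and 0.49 in OA_T0 vs OA (3.92e-04). Its fall was lost without replicate 2 or 3 of MDI (limma adjusted p = 0.192 and 0.0909), without any one replicate of OA (0.131, 0.104 and 0.0603), or without OA_T0 replicate 1 (0.0672) or both libraries low in CT010467.1 (0.118). Actb rose by 0.31 on the log2 scale in OA_T0 vs OA (limma adjusted p = 0.0155), a call lost without replicate 1 or 2 of OA (0.0815 and 0.0572), OA_T0 replicate 1 (0.101) or both libraries low in CT010467.1 (0.0942), and with no filter (0.0528). The other 4 that rose were Tpm4 (log2 fold change 0.27), Cnn3 (0.26), Tagln2 (0.20) and Myl6 (0.28), the last named after its value was seen, while Tpm3 had 0.066 (limma adjusted p = 0.454). The count of 6 was 3 without MDI replicate 2 and 1 without OA_T0 replicate 1 or without either of OA replicates 1 and 2. It was also 1 without both libraries low in CT010467.1 and 1 with no filter on low values.

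Of 28 other contractile and actin-linked genes, 26 were tested. In OA vs MDI 0 were higher and 8 lower (4 higher and 9 lower at an unadjusted p under 0.05), in OA_T0 vs OA 11 were higher and 1 lower, and in OA_T0 vs MDI 1 was higher and 0 lower. Of all tested genes 3.36% were called lower in OA vs MDI, 8.27% higher in OA_T0 vs OA and 1.25% higher in OA_T0 vs MDI. The median log2 fold changes of the list in the 3 comparisons were -0.15, 0.22 and 0.035. Zyx, zyxin of focal adhesions and stress fibres, had the smallest p-values of the list, with log2 fold changes of -0.58 (limma adjusted p = 6.18e-05) and 0.78 (1.37e-06) in the first comparison and the second. Flnc, a filamin that crosslinks actin, had -0.36 (limma adjusted p = 0.00251) and 0.46 (1.31e-04). Pdlim5, a PDZ-LIM scaffold on actin, had -0.43 (limma adjusted p = 7.05e-04) and 0.26 (0.0120), the second lost without OA_T0 replicate 1 (0.0707) or both libraries low in CT010467.1 (0.0570). Lmod1, leiomodin, which nucleates actin filaments in smooth muscle, averaged 54.6 in MDI, 47.8 in OA and 94.9 in OA_T0 and rose by 0.97 in OA_T0 vs OA (limma adjusted p = 0.00441). It was also the gene higher in OA_T0 vs MDI (0.81, limma adjusted p = 0.0443), a call lost without any one library other than MDI replicate 3 and OA replicate 3, with limma adjusted p from 0.0501 to 0.199. Fblim1, a filamin-binding adhesion protein, went the other way, with -0.63 in OA_T0 vs OA (limma adjusted p = 6.11e-04), and Des, the muscle intermediate filament desmin, had -0.55 (0.0550). In OA vs MDI Fblim1 had 0.34 (limma adjusted p = 0.0519) and Des 0.49 (0.135), each with every OA library above every MDI library. The 8 lower in OA vs MDI became 3 without MDI replicate 2 or OA replicate 1, 4 without OA replicate 2 and 5 without MDI replicate 3. The 11 higher in OA_T0 vs OA became 7 without OA replicate 2 and 6 without OA_T0 replicate 1. Without both libraries low in CT010467.1 these counts were 4 and 7, and with no filter on low values the 8 became 4. The 0 higher in OA vs MDI became 1 with a filter at a mean of 50, quantile normalisation or robust variance. It was also 1 without MDI replicate 3, OA replicate 3 or either of OA_T0 replicates 2 and 3.

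Early genes that SRF drives with the ELK factors had 0 of 9 higher and 4 lower in OA vs MDI, beside 3.36% of all tested genes lower. In OA_T0 vs OA 4 were higher and 0 lower, beside 8.27% of all tested genes higher. In OA_T0 vs MDI 0 of 9 passed in limma (1 higher and 0 lower at an unadjusted p under 0.05). Egr1, a zinc finger factor, averaged 5284 in MDI, 3988 in OA and 5247 in OA_T0, with log2 fold changes of -0.40 (limma adjusted p = 7.68e-04) and 0.40 (4.07e-04) in the first comparison and the second. Fos, a subunit of AP-1, had -0.46 (limma adjusted p = 0.0338) and 0.53 (0.00832), and Ier2, an early nuclear protein, had -0.38 (0.0147) and 0.64 (1.30e-04). The fall of Fos was lost without replicate 1 or 2 of MDI (limma adjusted p = 0.0792 and 0.166) or of OA (0.114 and 0.0850) or both libraries low in CT010467.1 (0.0830), and its rise without OA_T0 replicate 1 (0.0570). The fall of Ier2 was lost without replicate 1 or 2 of OA (limma adjusted p = 0.0766 and 0.0506) or both libraries low in CT010467.1 (0.0558). The 4 lower became 2 when MDI replicate 2 or either of OA replicates 1 and 2 was left out, 2 without both libraries low in CT010467.1, and 1 with no filter on low values.

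By profile over the 9 libraries, the tested genes outside the list most like the mean of the standardised members were Ehbp1l1 (Pearson r 0.98), Cnn3 (0.98), Bcar1 (0.97), Cnksr3 (0.97) and Bcl2l1 (0.97). Those most like Acta2 were Itprip (0.99), Mras (0.99), Stk39 (0.98), Pank1 (0.98) and Fhl3 (0.98). Bcar1 encodes the adhesion adaptor p130Cas, and Fhl3 a LIM-domain protein of actin structures. They were picked as the highest of all tested genes, 1.08% of which had r over 0.9 with the mean profile and 2.49% with Acta2.

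Preadipocyte and fibroblast markers had by far the highest summed level of the marker lists. Of 9 smooth muscle markers, 2 of them members (Actg2 and Cnn1), 4 passed the filter: Smtn, with means of 1020.3 to 1256, Lmod1, Des and Actg2. Of those 4, 0 passed in OA vs MDI in limma (1 higher and 1 lower at an unadjusted p under 0.05), 2 were higher in OA_T0 vs OA (Actg2 and Lmod1) and 1 was higher in OA_T0 vs MDI (Lmod1). Over all tested genes 8.27% were called higher in OA_T0 vs OA and 1.25% in OA_T0 vs MDI. Lmod1 and Des also belong to the list of other contractile and actin-linked genes, so these calls of Lmod1 are the ones given above. Among the other 5, Kcnmb1 was at or below the floor in all 9 libraries, and Myh11, the smooth muscle myosin, averaged 4.35 in MDI, 5.55 in OA and 5.63 in OA_T0. The summed level of this list, mostly Smtn, was 1011 to 1427 in MDI, 1312 to 1622 in OA and 1060 to 1630.4 in OA_T0. The 4 pericyte markers found summed to 2478 to 3174 over the 9 libraries, mostly Pdgfrb. Rgs5 and Cspg4 among them averaged at most 9.39 and 3.20 in any group. Of 6 striated muscle markers Myog, Ckm, Myh3 and Myh7 were at or below the floor in every library. The 8 preadipocyte and fibroblast markers summed to 373196 to 386536 in MDI, 360256 to 385047 in OA and 342809 to 388044 in OA_T0. Of these 8, 1 was higher and 1 lower in OA vs MDI, 2 were higher and 1 lower in OA_T0 vs OA, and 0 passed in OA_T0 vs MDI in limma (1 higher and 2 lower at an unadjusted p under 0.05). Beside these counts, 3.43% of all tested genes were called higher and 3.36% lower in OA vs MDI. In OA_T0 vs OA the shares were 8.27% higher and 6.84% lower. Pdgfra, a receptor of precursors, had log2 fold changes of 0.47 in OA vs MDI (limma adjusted p = 0.00406) and -0.65 in OA_T0 vs OA (1.53e-04). Fbn1, fibrillin of the matrix, went the other way, with -0.48 (limma adjusted p = 2.51e-04) and 0.30 (0.00460), the second lost without both libraries low in CT010467.1 (0.0852). Dlk1, an inhibitor of adipogenesis, rose by 0.28 in OA_T0 vs OA (limma adjusted p = 0.0444), a call lost without replicate 1 or 2 of OA (0.170 and 0.154), replicate 1 or 2 of OA_T0 (the smaller p being 0.115) or MDI replicate 2 (0.0645), and without both libraries low in CT010467.1 (0.0954). Among the other types, 5 macrophage markers summed to at most 119.0, 4 endothelial markers to at most 20.03 and the 1 epithelial marker found to at most 1.12. The 7 adipocyte markers found summed to 1253 to 1417 in MDI, 2770.5 to 3407 in OA and 1797 to 1892 in OA_T0. This sum was almost all Fabp4 and Pparg. Adipoq, Plin1, Retn, Cidec and Cfd averaged at most 5.03 in any group. Of the 2 tested, Fabp4, a fatty acid carrier, averaged 374 in MDI, 2024 in OA and 661 in OA_T0. Its log2 fold changes were 2.45 in OA vs MDI (limma adjusted p = 4.57e-08), -1.61 in OA_T0 vs OA (2.13e-06) and 0.84 in OA_T0 vs MDI (0.00412). That last call was lost with no filter on low values (limma adjusted p = 0.0775). Pparg, the master factor of adipogenesis, did not share the order of Fabp4, at 945 in MDI, 964 in OA and 1185 in OA_T0. It had 0.029 in OA vs MDI (limma adjusted p = 0.848), 0.30 in OA_T0 vs OA (0.00558) and 0.33 in OA_T0 vs MDI (0.0127). The second was lost without both libraries low in CT010467.1 (limma adjusted p = 0.0911), and the last without replicate 1 or 2 of MDI (0.0525 and 0.0718) or OA_T0 replicate 1 (0.103). Cfd was at or below the floor in all libraries; the part of these markers in the results on the members was not tested. In bulk RNA, fewer cells rich in stress fibres and less of these RNAs per cell cannot be told apart.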

How the data were processed

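RNA was measured in 9 libraries of 3T3-L1 cells. The authors deposited one signal value per gene and library, named as normalised counts, which are not whole numbers. Of tools and builds, the submitters' processing notes list mm9, DESeq2, HTSeq, TopHat and CASAVA 1.8.2; their roles are not given in the sources used here. Per the labels' protocols, RNA was taken with oligo-dT and the kit marks strand.

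In each library low values clustered on a step, read as 1 fragment. From 5 to 50 steps, values within 0.05 of a whole step made up 62.3% to 68.8%, so reads were not recovered and no count model was run. The total divided by the step gave the estimated depth. Values were taken as log2(value + 1), which understates the change of low genes, and the 15002 genes with a mean of at least 10 were tested with limma (version 3.58.1, trended variance, R 4.3.3), the 3 groups sharing 1 spread. Two-sided p-values were adjusted by Benjamini-Hochberg over all tested genes; passing means an adjusted p under 0.05. The procedure was tested on simulated data.

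The members and lists were chosen with earlier results of these data known. The results of 1 list are not reported here. Named were all members, up to 3 passing genes per list and comparison, 14 fixed cofactors, paralogues and markers, and the 5 genes closest in profile. Alternatives were other pseudocounts (0.5, 5), filters (none, 50), quantile normalisation, equal totals, only the groups compared, a replicate block, robust variance and libraries left out; those on lists outside the members were chosen after seeing the data. Promoters came from RefSeq (GRCm38.p6) and exon lengths from GENCODE M21; neither is the build of the notes, so no positions are given for the counts.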

Additional observations from a re-analysis of the deposited data

How the results depend on the processing

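Over the alternatives, the calls of Acta2 and Myl9 in OA vs MDI and of Acta2, Tagln, Cnn2, Myl9 and Srf in OA_T0 vs OA held under all 19, and that of Actg2 in OA_T0 vs OA under all 18 that tested it. The 3 members lower in OA vs MDI became 5 with equal totals, and 2 to 5 with 1 library left out; the 6 higher in OA_T0 vs OA became 5 with a filter at a mean of 50, which removes Actg2, and 6 to 7 with 1 library left out. In OA_T0 vs MDI the 0 higher became 1 with quantile normalisation, 1 without both libraries low in CT010467.1, and 0 to 2 with 1 library left out. The fall of Vcl was lost without a filter on low values (limma adjusted p = 0.0892), and equal totals brought Srf below the threshold in OA vs MDI (0.0324).

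Among log2 fold changes that did not pass, signs turned for Tpm2 in OA_T0 vs OA with quantile normalisation (-0.015) and with 1 library left out (-0.046 to 0.10; also -0.034 and -0.0018). They turned for Tpm1 with 1 library left out in OA vs MDI (-0.041 to 0.14) and in OA_T0 vs MDI (-0.14 to 0.043, also 0.037). The cause was not tested.

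Replicate numbers are shared by the groups, but samples of 1 number did not deviate together: 1 of the 9 same-numbered pairs correlated over 0.1 (range -0.26 to 0.26). Of the 18 pairs with different numbers, 6 correlated over 0.1 (range -0.23 to 0.25), so some libraries of different groups did deviate alike. With a replicate block 3 members were lower in OA vs MDI, 6 higher in OA_T0 vs OA and 0 passed in OA_T0 vs MDI. Over all genes the calls ran with 1 library left out from 211 to 658 higher and 155 to 639 lower in OA vs MDI (main 514 and 504), from 580.0 to 1443 and 474 to 1239 in OA_T0 vs OA (1240.0 and 1026), and from 66 to 284 and 44 to 247 in OA_T0 vs MDI (188 and 204). Under the other alternatives they ran from 233 to 608 and 234 to 616, 524 to 1289 and 402 to 1207, and 72 to 202 and 38 to 262. Another scaling moved the share of higher among all calls by under 10 points. Depth limits Cnn1 and Actg2 most. The replicate block changed no member's call. Among the other listed genes named it ended those of Actg1 and Fos in OA vs MDI (limma adjusted p = 0.0658 and 0.0581). It also ended those of Dlk1 in OA_T0 vs OA (0.0684) and of Lmod1 in OA_T0 vs MDI (0.0738).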
